A study of Setaria viridis with 23 samples.

Results

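Gene expression was compared between inflorescence primordia of Setaria viridis, a small C4 grass and a relative of the crop foxtail millet, at 15 and at 16 days after sowing (DAS). All libraries were poly(A) RNA of the accession A10.1, and no treatment or mutant set the stages apart. Each library came from a pool of hand-dissected primordia, so a p-value here measures the spread between pools. The comparison took 4 libraries of 15 DAS and 4 of 16 DAS, 8 of the 23 libraries of a developmental series that runs from 10 to 18 DAS, and all 35214 genes of the table, of which 19476 had enough counts to be tested.

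The panicle of Setaria bears short branches that end either in a spikelet, the unit that holds the florets of a grass, or in a bristle, a sterile branch. Both arise from the same kind of branch meristem. At the earlier of the stages compared here spikelet meristems begin to differentiate, and a day later spikelets with glume primordia can be told from bristles. In grasses, genes of the TERMINAL FLOWER 1, TAWAWA1 and SVP families hold meristems in an indeterminate state, RAMOSA and SBP-box genes act in branch and spikelet determinacy, NAC and TCP factors mark boundaries and restrain outgrowth, and SEPALLATA-type and other MADS-box genes specify the floret. A pool holds many cell types, so fewer cells of a type and less RNA per cell cannot be told apart in these data.

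The total of assigned reads was 8964218, 7630744, 15543160 and 14269371 in 15 DAS replicates 1 to 4, against 12377240 to 15376836 at 16 DAS. Levels are given as TMM CPM, counts scaled to a common library size by the trimmed mean of M-values method, which are not divided by gene length and therefore compare libraries, not genes. At 1 CPM the libraries held between 7.63 and 15.5 counts. The 15 DAS pools were also less alike. The SD of log2(CPM + 1) over the 4 libraries had a median of 0.209 at 15 DAS and 0.136 at 16 DAS, and was larger at 15 DAS in 76.7% of genes. Across genes, Spearman's correlation between libraries was 0.949 to 0.988 within 15 DAS, 0.983 to 0.995 within 16 DAS and 0.946 to 0.987 between the stages. The pair with the lowest value within 15 DAS was replicate 2 with replicate 4, and replicate 2 of 15 DAS had a value of 0.985 with replicate 2 of 16 DAS. The 15 DAS libraries thus differed among themselves about as much as they differed from those of 16 DAS by this measure. The levels of the KNOX genes SvKn1 and SvRs1, which maintain meristems, were 302 to 414 and 298 to 464 CPM at 15 DAS and 366 to 472 and 314 to 430 CPM at 16 DAS.

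Between the stages 4167 genes passed an edgeR quasi-likelihood test at a Benjamini-Hochberg adjusted p under 0.05, which is 21.4% of the genes tested, and these are the genes said to have risen or fallen here. Of them 1829 (9.39%) rose and 2338 (12.0%) fell at 16 DAS, and most moved by little. The rises had a median log2 change of 0.45 and the falls one of -0.63. Large changes were nearly all falls. More than 2-fold, 30 genes (0.154%) rose and 429 (2.20%) fell. The 429 were chosen for being higher at 15 than at 16 DAS, and the 30 for the reverse. An extreme at 15 DAS in either set is thus in part fixed by the choice. With that limit, the 429 as a set were highest at 15 DAS and by 16 DAS lay near their 14 DAS level. Through days 14, 15, 16 and 18 the median of their stage means ran 2.01, 6.01, 2.11 and 2.71 CPM. For the 30 it ran 3.09, 2.23, 4.93 and 4.69 CPM. Single genes can depart from these medians, and the day 14 libraries came from another sequencing run. The cause of the high level at 15 DAS was not tested. Of the rises 1153 were under 0.5 on the log2 scale, 646 were from 0.5 to 1 and 30 were from 1 to 2, while the falls counted 717, 1192 and 345 in these ranges and a further 84 over 2, down to -5.38. The median over all genes tested was -0.03.

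Without regard to the test, the 4 values of each stage did not overlap in 5145 genes (26.4%). Of the genes that rose or fell, 3718 were of this kind, 1736 rises and 1982 falls. Scaling by library size alone gave 1231 rises and 2985 falls, so the split between directions, 43.9% rises by TMM and 29.2% by library size, depended on the scaling. The number of genes called fell to 2357 without 15 DAS replicate 3. It fell to 1680, 2435, 1504 and 2633 without 16 DAS replicates 1, 2, 3 and 4. With 15 DAS replicates 1 and 2 both left out the number was 6722. These were the 15 DAS libraries most like 16 DAS, with Spearman values of 0.971 to 0.987, against 0.946 to 0.976 for replicates 3 and 4. Leaving them out sets the stages further apart, so 6722 is not a check of the calls.

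**Figure D1:**
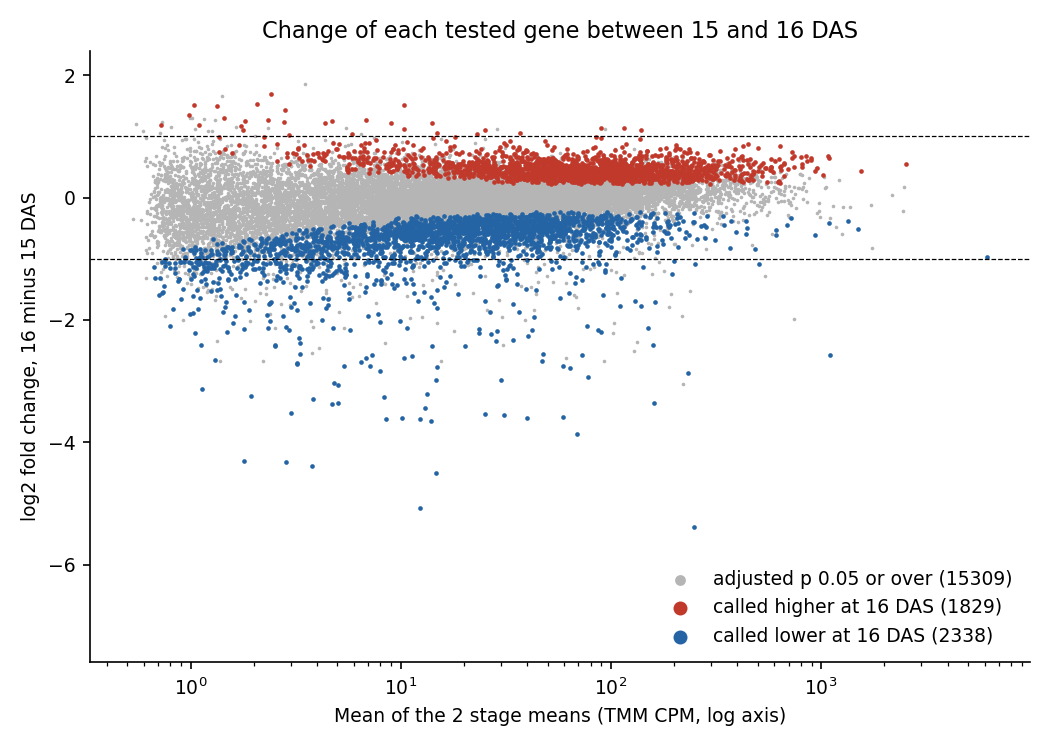
Each point is a tested gene, with the mean of its 15 DAS and 16 DAS levels in TMM CPM on a log axis and its log2 fold change, 16 minus 15 DAS, on the vertical axis, and dashed lines mark 2-fold changes. Genes called higher (1829) form a band close to the line at high levels, whereas genes called lower (2338) reach down to -5.38 at levels from under 10 to over 100 CPM.

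The direction of the changes differed with the level of the gene. Genes were placed by their mean at 15 DAS and, because that value is itself an arm of the comparison, also by their mean in the 18 DAS libraries, which the comparison did not use. Among the 2479 genes over 100 CPM at 18 DAS, 25.5% rose and 4.56% fell. Among the 10485 genes from 10 to 100 CPM the shares were 10.2% and 12.5%. Among the 5549 genes from 1 to 10 CPM, 2.33% rose and 14.2% fell, and among the 963 genes under 1 CPM, 0.415% rose and 12.8% fell. Among the genes called, those high by the 18 DAS mean thus mostly rose and those low by it mostly fell. The order was the same by the 15 DAS mean down to 1 CPM, with 22.6% rising and 8.48% falling over 100 CPM and 2.83% rising and 11.4% falling from 1 to 10 CPM. Under 1 CPM by the 15 DAS mean it was reversed, with 7 of 550 genes rising (1.27%) and 3 falling (0.55%). Of the 429 falls of more than 2-fold, 223 were in genes of 1 to 10 CPM at 18 DAS and 97 in genes under 1 CPM. The median standard error of a log2 change was 0.11 over 100 CPM and 0.22 from 1 to 10 CPM.

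**Figure D2:**
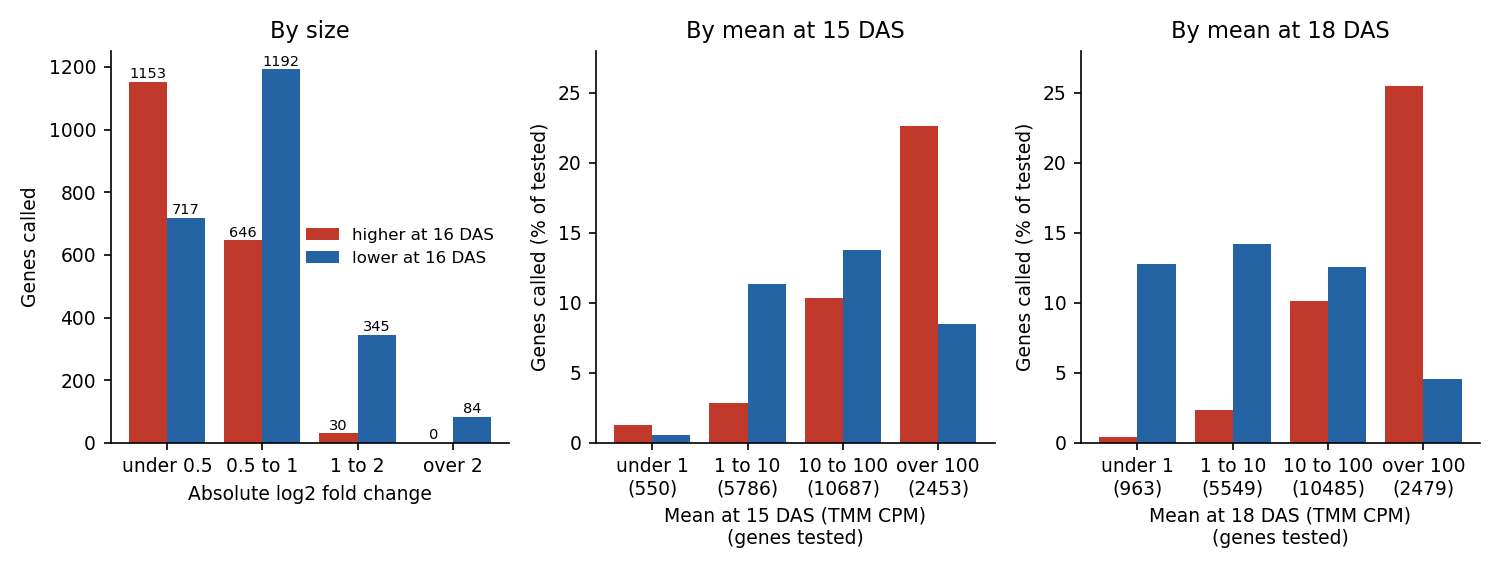
The left panel counts the called genes by absolute log2 fold change, and the other panels give the percentage of tested genes that were called, by the mean in TMM CPM at 15 DAS or at 18 DAS, with the number tested under each bin. Bars for genes higher at 16 DAS grow with the level, from 0.415% to 25.5% by the 18 DAS mean. Bars for lower genes are smallest over 100 CPM by the 18 DAS mean, at 4.56%, and under 1 CPM by the 15 DAS mean, at 0.55%.

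Of the genes of inflorescence development named by the study, 54 were taken, of which 49 had enough counts to be tested. Of these 9 rose and 6 fell (30.6% called, beside 21.4% of all genes), and 14 of the 15 did not overlap between stages. Of all genes called 89.2% did not overlap, and of all genes tested 26.4%. The study set them in groups by their time course in these same libraries, so a direction shared within a group is not independent evidence of it.

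Among 10 named genes most expressed early in the series, 8 were tested, and the median log2 change was -0.77. Of these 5 fell (62.5%, beside 12.0% of all genes) and none rose. The largest fall was in the homolog of rice OsMADS47 (Sevir.9G518400), a MADS-box gene of the SVP type. It was at 47.0, 42.3, 39.1 and 61.9 CPM in the 4 libraries of 15 DAS and at 12.7, 11.6, 7.70 and 5.34 CPM at 16 DAS. Every 16 DAS library lay far below every 15 DAS library, a 5.09-fold fall (log2 change -2.35, SE 0.26, edgeR adjusted p = 0.00404). A second SVP-like gene, Sevir.4G075400, went from 88.3, 92.8, 78.2 and 63.7 CPM to 47.4, 49.4, 51.0 and 37.9 CPM (log2 change -0.80, SE 0.14, edgeR adjusted p = 0.00781). The homolog of OsMADS22 (Sevir.1G335300), the remaining SVP-type gene, went from 104, 98.8, 82.1 and 89.3 CPM to 69.9, 62.8, 69.2 and 59.1 CPM (log2 change -0.52, SE 0.10, edgeR adjusted p = 0.00981). All 3 SVP-type genes fell with no overlap between stages.

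Of the other families that hold meristems indeterminate, a TERMINAL FLOWER 1 homolog and a TAWAWA1 homolog fell. The SvTfl1 paralog (Sevir.7G334800), of the family of TERMINAL FLOWER 1, which in Arabidopsis keeps the shoot tip from turning into a flower, went from 5.46, 7.95, 5.53 and 5.94 CPM to 2.51, 2.16, 3.22 and 3.39 CPM. The stages did not overlap, and the fall was 2.18-fold (log2 change -1.13, SE 0.20, edgeR adjusted p = 0.0083). SvTfl1 itself (Sevir.8G033800) had 33 counts over the 4 libraries of 15 DAS and 17 over those of 16 DAS and a further TFL1-like gene (Sevir.7G097700) had 8 and 3, too few to be tested. SvTaw1-like 2 (Sevir.1G244200), a homolog of TAWAWA1, which in rice prolongs branching before spikelets form, went from 11.5, 11.0, 9.50 and 10.2 CPM to 5.88, 5.14, 6.51 and 4.91 CPM (log2 change -0.90, SE 0.13, edgeR adjusted p = 0.00584). SvTaw1 (Sevir.9G221800) did not pass the test, with 7.99 to 14.2 CPM at 15 DAS and 8.30 to 13.8 CPM at 16 DAS. SvTfl1-like (log2 change -0.75, SE 0.37) and the bZIP gene SvLg2 (0.08, SE 0.17) did not pass either. In the 23 libraries scaled together, the SvTfl1 paralog averaged 3.5 CPM at 14 DAS, in another sequencing run, and 2.8 CPM at 18 DAS. At these stages SvTaw1-like 2 averaged 17.65 and 1.77 CPM.

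Among 11 named genes that the study placed at the branching stages, 3 rose and none fell (27.3% called, beside 21.4% of all genes). Their median log2 change was 0.42. SvLg1 (Sevir.3G023500), the SBP-box gene liguleless1, which in maize sets the border of leaf blade and sheath, rose from 17.7, 15.7, 12.0 and 15.5 CPM to 30.1, 33.6, 32.3 and 27.9 CPM. The lowest 16 DAS value stood above the highest 15 DAS value, a 2.04-fold rise (log2 change 1.03, SE 0.13, edgeR adjusted p = 0.00404). SvBaf1 (Sevir.4G025200), an AT-hook gene needed for axillary meristems in maize, rose from 4.70, 5.93, 2.45 and 3.25 CPM to 10.8, 9.78, 9.50 and 7.94 CPM (log2 change 1.27, SE 0.25, edgeR adjusted p = 0.0107). SvRa2 (Sevir.5G116100), the LOB-domain gene ramosa2 that acts in branch determinacy in maize, rose from 27.1, 24.6, 24.7 and 30.4 CPM to 33.3, 36.3, 36.1 and 37.1 CPM (log2 change 0.42, SE 0.09, edgeR adjusted p = 0.0165). For SvRa2 the edgeR adjusted p was 0.0528 without 16 DAS replicate 3 and 0.0607 with all 23 libraries in the fit. In the 23 libraries scaled together, SvLg1 averaged 72.8 CPM at 14 DAS and 13.6 CPM at 18 DAS, SvBaf1 17.3 and 5.32 CPM, and SvRa2 49.3 and 25.7 CPM, where the 14 DAS libraries came from another sequencing run.

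The other 8 genes of the branching stages did not pass the test. The GRAS gene SvMoc1, needed for tillers in rice, had a log2 change of 0.84 (SE 0.35) with overlapping stages, at 2.33 to 6.06 CPM and 5.05 to 9.87 CPM. SvLfy, homolog of LEAFY, had -0.29 (SE 0.15), the SBP-box genes SvUb3 and SvTsh4 had -0.11 (SE 0.16 and 0.17), and the auxin genes SvVt2 and SvBif2 had 0.43 (SE 0.18) and 0.19 (SE 0.17). The GATA factor gene SvTsh1 had -0.46 (SE 0.18), and SvWus, at 0.283 to 1.39 CPM at 15 DAS, had 0.50 (SE 0.39).

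Of 16 named genes that the study linked to axillary and spikelet meristems, 15 were tested, 4 rose and none fell (median log2 change 0.25). This was 26.7% called, beside 21.4% of all genes. SvBrm (Sevir.2G237500), a BRAHMA-type ATPase of chromatin remodelling, rose from 257, 229, 226 and 284 CPM to 350, 330, 370 and 377 CPM (log2 change 0.52, SE 0.10, edgeR adjusted p = 0.00938). SvCuc3 (Sevir.6G213600), a NAC factor of organ boundaries, rose from 42.8, 47.2, 22.5 and 22.4 CPM to 74.7, 73.4, 57.6 and 49.4 CPM (log2 change 0.93, SE 0.26, edgeR adjusted p = 0.0329). Replicates 3 and 4 were the lower libraries of SvCuc3 at both stages, and the lowest 16 DAS value was only just above the highest of 15 DAS. SvTb1 (Sevir.9G122200), the TCP gene teosinte branched1, which represses bud outgrowth in maize, rose from 34.9, 27.5, 38.7 and 39.3 CPM to 50.6, 40.3, 52.4 and 56.0 CPM (log2 change 0.50, SE 0.14, edgeR adjusted p = 0.0313). SvTd1 (Sevir.4G294000), a CLAVATA1-type receptor kinase that limits meristem size in maize, rose from 20.9, 16.3, 14.1 and 19.9 CPM to 28.3, 27.8, 24.5 and 21.7 CPM (log2 change 0.53, SE 0.14, edgeR adjusted p = 0.0314). In the 23 libraries scaled together, SvBrm averaged 219 CPM at 14 DAS, in another sequencing run, and 229 CPM at 18 DAS. At these stages SvCuc3 averaged 79.7 and 57.0 CPM, SvTb1 56.2 and 35.4 CPM, and SvTd1 30.4 and 17.8 CPM.

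The last 3 of these calls depended on single libraries. Without 15 DAS replicate 3 the edgeR adjusted p was 0.0854 for SvCuc3, 0.0512 for SvTb1 and 0.0720 for SvTd1. It also passed 0.05 without 16 DAS replicate 1 (0.0912, 0.0793 and 0.0918) and without 16 DAS replicate 3 (0.0685, 0.0833 and 0.0698), without 16 DAS replicate 2 for SvCuc3 (0.0759) and SvTd1 (0.0740), without 15 DAS replicate 4 for SvCuc3 (0.0554), and without 15 DAS replicate 1 (0.0607) or 16 DAS replicate 4 (0.0739) for SvTb1. The direction was kept in each case, and without 15 DAS replicates 1 and 2 SvTb1 had 0.0620.

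SvBd1, SvRa1 and SvRa3, whose homologs act in spikelet meristem fate and branch determinacy in maize, did not pass the test. SvBd1 (Sevir.2G437800), the AP2/ERF gene that gives spikelet meristems their identity, was at 3.03 to 5.65 CPM at 15 DAS and 3.40 to 7.58 CPM at 16 DAS (log2 change 0.37, SE 0.31). SvRa1 (Sevir.2G209800), a C2H2 zinc finger gene of branch determinacy, was at 4.04 to 6.54 CPM and 3.40 to 7.94 CPM (log2 change 0.03, SE 0.27). SvRa3 (Sevir.2G407500), a trehalose-phosphate phosphatase of the same pathway, was at 121 to 183 CPM and 152 to 218 CPM (log2 change 0.25, SE 0.15). In all 3 the stages overlapped. SvKn1 and SvRs1 had changes of 0.22 (SE 0.12) and -0.01 (SE 0.15), the boundary gene SvCuc2 0.19 (SE 0.26), the bZIP gene SvFea4 0.05 (SE 0.23), the remodelling ATPase SvSyd 0.32 (SE 0.14), the YUCCA gene SvSpi1 0.26 (SE 0.25), the bHLH gene SvBa1 0.22 (SE 0.20) and the TCP gene SvBad1 0.16 (SE 0.15). SvFon2, a CLAVATA3-type peptide gene, had 25 and 33 counts and was not tested.

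**Figure D3:**
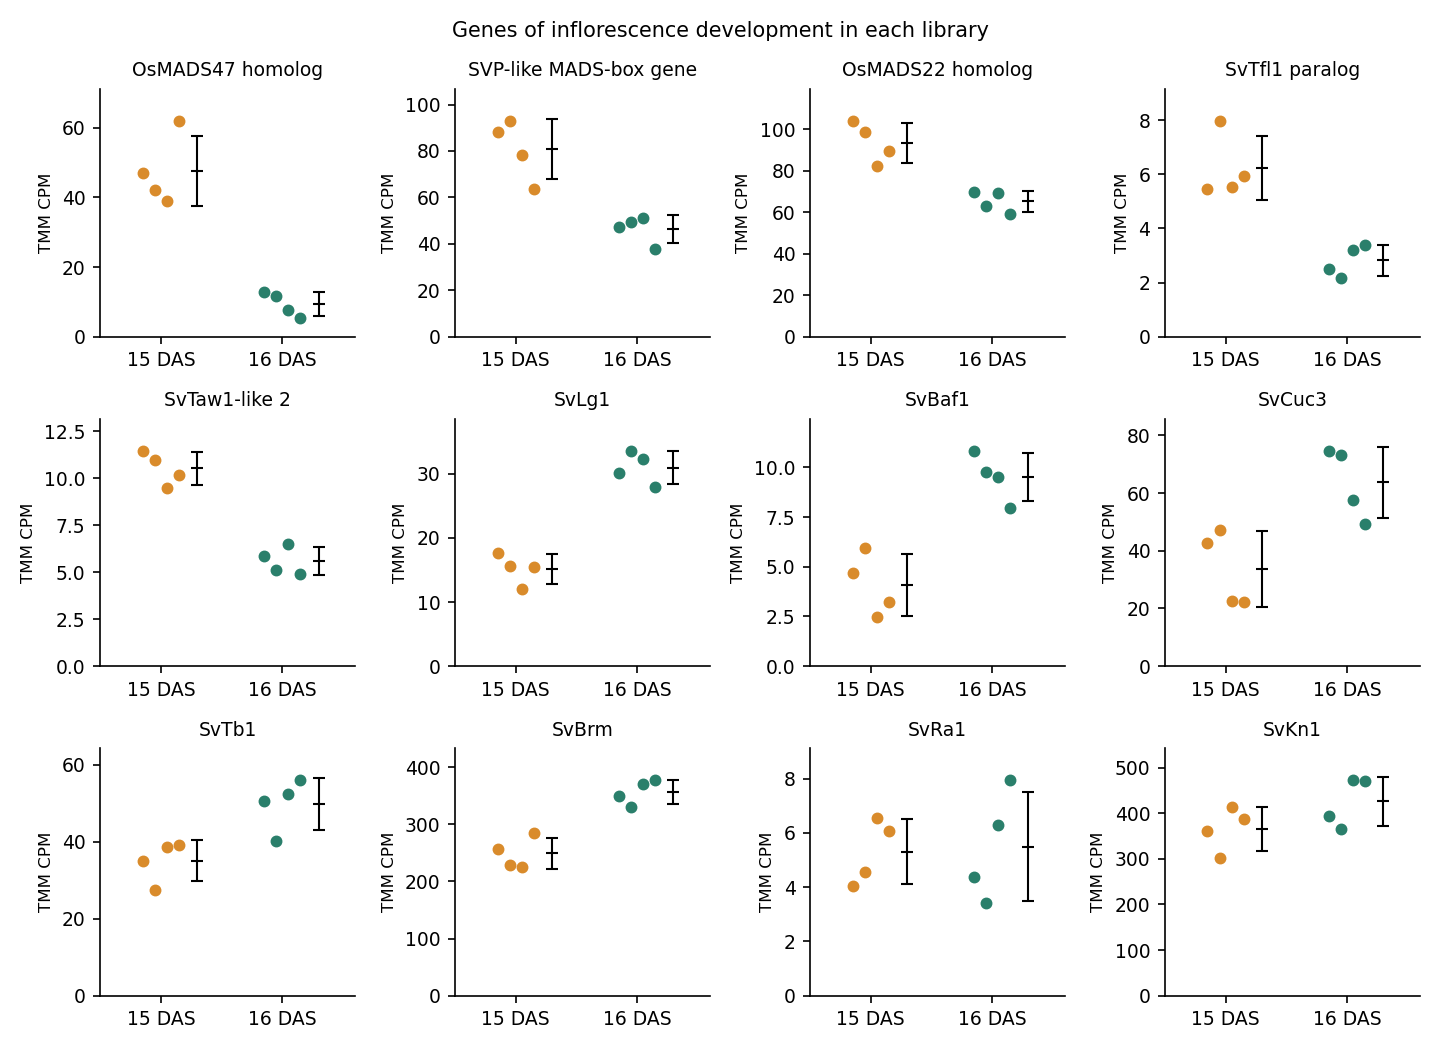
Each panel gives a gene in TMM CPM in the 4 libraries of 15 DAS (orange) and of 16 DAS (green), replicates 1 to 4 from left to right, with the mean and SD of the 4 as a bar. The OsMADS47 homolog, the SVP-like gene, the OsMADS22 homolog, the SvTfl1 paralog and SvTaw1-like 2 lie lower at 16 DAS without overlap, SvLg1, SvBaf1, SvCuc3, SvTb1 and SvBrm lie higher, and SvRa1 and SvKn1 overlap.

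Of 14 named genes of floral organs 12 were tested, 1 rose and 1 fell (16.7% called, beside 21.4% of all genes). Their median log2 change was -0.02. The levels of the MADS-box members were low at both stages compared with their own levels at 18 DAS. SvTga1 (Sevir.6G230400), the SBP-box gene teosinte glume architecture1, which controls glume hardening in maize, rose from 29.8, 28.8, 29.1 and 27.4 CPM to 41.5, 38.1, 42.6 and 40.6 CPM. The libraries of each stage lay close together and did not overlap (log2 change 0.50, SE 0.08, edgeR adjusted p = 0.00628). The homolog of OsMADS7 (Sevir.6G230500), a SEPALLATA-type gene, fell from 1.31, 2.15, 2.08 and 2.33 CPM to 1.06, 0.912, 0.673 and 0.794 CPM (log2 change -1.20, SE 0.25, edgeR adjusted p = 0.0133), and averaged 20.2 CPM at 18 DAS. SvLhs1 (Sevir.9G494300), also of the SEPALLATA type, was at 12.9 to 19.9 CPM at 15 DAS and 11.1 to 17.0 CPM at 16 DAS (log2 change -0.12, SE 0.17), with averages of 0.309 CPM at 14 DAS and 121 CPM at 18 DAS. SvBde1, of the AGL6 type, had a log2 change of 0.40 (SE 0.16) and averaged 40.4 CPM at 18 DAS.

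The remaining floral genes did not pass the test. Their log2 changes were 0.52 (SE 0.32) for the OsMADS17 homolog, -0.69 (SE 0.29) for the OsMADS58 homolog, -0.41 (SE 0.18) for the OsMADS8 homolog and 0.09 (SE 0.18) for SvMADS4. Outside the MADS-box family they were -0.19 (SE 0.20) for SvSl1, 0.10 (SE 0.33) for SvTob1, -0.22 (SE 0.18) for SvAn1, a gibberellin synthesis gene, and 0.20 (SE 0.19) for SvTs2. SvSi1, whose maize homolog specifies stamens and lodicules, had 27 and 11 counts and the homolog of OsMADS3 had 20 and 32, too few to be tested, and SvSi1 averaged 22.5 CPM at 18 DAS.

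The 9 transcription factor families of the study held 468 genes, of which 352 were tested, 25 rose and 34 fell (16.8%, beside 21.4% of all genes), with a median log2 change of -0.10 beside -0.03. The median level of the 352 at 15 DAS was 9.94 CPM, beside 22.1 CPM for all genes tested. Every MADS-box gene called fell. Of 26 tested members 9 fell (34.6%, beside 12.0% of all genes), 5 of them more than 2-fold. None rose, and the family's median was -0.34. The number of members called higher was 2 by DESeq2, 3 with the replicate number as a block, 1 in the 12 single-end libraries and 1 by limma-voom. The 9 were the 3 SVP-type genes, the OsMADS7 homolog and 5 members that the study did not name. Sevir.3G374400 changed by -1.25 (SE 0.39), Sevir.5G438700 by -1.19 (SE 0.31), Sevir.6G230800 by -1.18 (SE 0.31), Sevir.7G117600 by -0.79 (SE 0.13) and Sevir.6G230900 by -0.69 (SE 0.17) on the log2 scale. Stages overlapped for Sevir.5G438700 and Sevir.6G230800. The count of 9 dropped to 5 without 15 DAS replicate 3 and also without 16 DAS replicate 1, 2 or 3. The falls thus took in both SVP-type genes and a SEPALLATA-type gene of the floret.

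In the bZIP family 7 of 46 tested genes fell and none rose (median -0.31). These 15.2% compare with 12.0% falling and 21.4% called in either direction over all genes. TGA9 homolog Sevir.3G229900, named after the closest Arabidopsis gene, an anther regulator there, fell from 9.06, 6.44, 4.78 and 6.78 CPM to 2.64, 1.49, 1.65 and 0.866 CPM. This was the largest fall among the family's genes whose stages did not overlap, 3.99-fold (log2 change -2.0, SE 0.31, edgeR adjusted p = 0.00643). Sevir.1G067500 also fell, from 29.3 to 102 CPM down to 18.5 to 27.1 CPM (log2 change -1.51, SE 0.33). The homologs of bZIP9 and GBF3 fell further on average but overlapped, and are described with the other genes of that pattern. Without single libraries the bZIP falls numbered 3 to 15, with 3 without 16 DAS replicate 1, 4 without 16 DAS replicate 3 and 15 without 15 DAS replicate 2.

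In the list of TCP genes, 5 of 24 tested members rose and none fell. These 20.8% compare with 9.39% rising and 21.4% called in either direction over all genes. The median of the 24 was 0.25, and the 5 had no overlap between stages. By their annotation only 16 of the 24 are TCP factors, the class of SvTb1, and of these 4 rose (median 0.30), while the other 8 are chaperonin subunits or phosphatidylinositol phosphate kinases, of which 1 rose, a split made after the values were seen. Beside SvTb1 the rising TCP factors were Sevir.5G326100 (log2 change 0.49, SE 0.10), which went from 24.8 to 32.4 CPM up to 37.0 to 41.1 CPM, and Sevir.6G241000 and Sevir.7G183600, with changes of 0.38 and 0.30, and the kinase gene was Sevir.6G174500 (0.36). The count of 5 dropped to 2 without 16 DAS replicate 1, 3 or 4 and to 3 without 15 DAS replicate 3, and was 8 without 15 DAS replicate 2 and 3 under scaling by library size alone. In the SBP family 3 of 14 rose and 1 fell (28.6% called, beside 21.4% of all genes, median 0.14). The SPL6 homolog (Sevir.9G022400) rose from 90.5 to 110 CPM up to 147 to 157 CPM (log2 change 0.59, SE 0.08, edgeR adjusted p = 0.00532), beside SvLg1 and SvTga1. Sevir.2G336100 fell from 358 to 510 CPM down to 294 to 347 CPM (log2 change -0.56, SE 0.12), a call that was lost without 16 DAS replicate 3 (edgeR adjusted p = 0.0562).

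In the LOB family of lateral organ boundary genes 3 of 8 tested genes fell and SvRa2 alone rose. This was 50.0% called, beside 21.4% of all genes, with a median of -0.22. Sevir.2G384900 fell from 2.61 to 3.96 CPM down to 1.08 to 2.05 CPM (log2 change -1.08, SE 0.24), and Sevir.9G362000 from 52.4 to 59.5 CPM down to 28.5 to 36.2 CPM (log2 change -0.81, SE 0.10). The C2H2 zinc finger family had 6 rises and 5 falls among 52 tested genes (21.2%, beside 21.4% of all genes, median 0.14). Its largest rise without overlap was Sevir.2G405300, annotated as a helicase domain protein, from 43.1 to 55.6 CPM up to 74.9 to 77.6 CPM (log2 change 0.65, SE 0.09). Its largest fall was the IDD4 homolog (Sevir.2G314300), from 5.22 to 9.34 CPM down to 1.88 to 4.69 CPM (log2 change -1.27, SE 0.28), with an edgeR adjusted p of 0.0551 without 16 DAS replicate 3. The C2H2 calls split into 2 rises and 3 falls without 15 DAS replicate 3, 2 and 4 without 16 DAS replicate 1, and 2 and 2 without 16 DAS replicate 3, and into 5 rises and 6 falls by library size alone.

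The AP2/ERF, bHLH and NAC families had a smaller share of calls than all genes together. Their median levels at 15 DAS were 6.59, 8.01 and 4.96 CPM, beside 22.1 CPM for all genes tested. Of all genes from 1 to 10 CPM at 15 DAS, 2.83% rose and 11.4% fell. In AP2/ERF 4 of 69 tested genes rose and 5 fell (13.0%, median -0.24). By annotation 12 of the 69 are B3 domain genes with no AP2 domain, of which 1 rose and 2 fell. LEP homolog Sevir.7G088600 rose from 1.31, 0.884, 1.45 and 0.636 CPM to 3.63, 2.57, 2.09 and 2.02 CPM (log2 change 1.26, SE 0.31, edgeR adjusted p = 0.0218, and 0.0659 without 16 DAS replicate 1). Sevir.1G079900 fell from 10.2 to 12.6 CPM down to 6.30 to 8.25 CPM (log2 change -0.72, SE 0.13). In bHLH 4 of 72 rose and 2 fell (8.33%, median 0.07). The bHLH144 homolog (Sevir.9G383300) rose from 108, 111, 65.9 and 87.6 CPM to 190, 194, 178 and 160 CPM (log2 change 0.96, SE 0.16, edgeR adjusted p = 0.007), and Sevir.7G050200 fell from 2.18 to 3.46 CPM down to 0.912 to 1.45 CPM (log2 change -1.17, SE 0.23). In NAC 2 of 41 rose, SvCuc3 and Sevir.3G241000 (log2 change 0.41, SE 0.09), and 2 fell (9.76%, median -0.23). AP2/ERF calls numbered 2 rises and 2 falls without 15 DAS replicate 3, 1 and 3 without 16 DAS replicate 1, 2 and 1 without 16 DAS replicate 3, 5 and 14 without 15 DAS replicate 2, and 3 and 10 by library size alone, with 2 rises also without 15 DAS replicate 1 or 16 DAS replicate 4 and 8 falls without 15 DAS replicate 4. The bHLH family had 10 rises and 4 falls without 15 DAS replicate 2, and 1 fall without 15 DAS replicate 3 or any 16 DAS library. The NAC family had 0 calls without 16 DAS replicate 1, 1 rise and 0 falls without 16 DAS replicate 3, 1 rise and 1 fall without 15 DAS replicate 3 or 4 or 16 DAS replicate 2, and 2 rises and 5 falls without 15 DAS replicate 2.

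**Figure D4:**
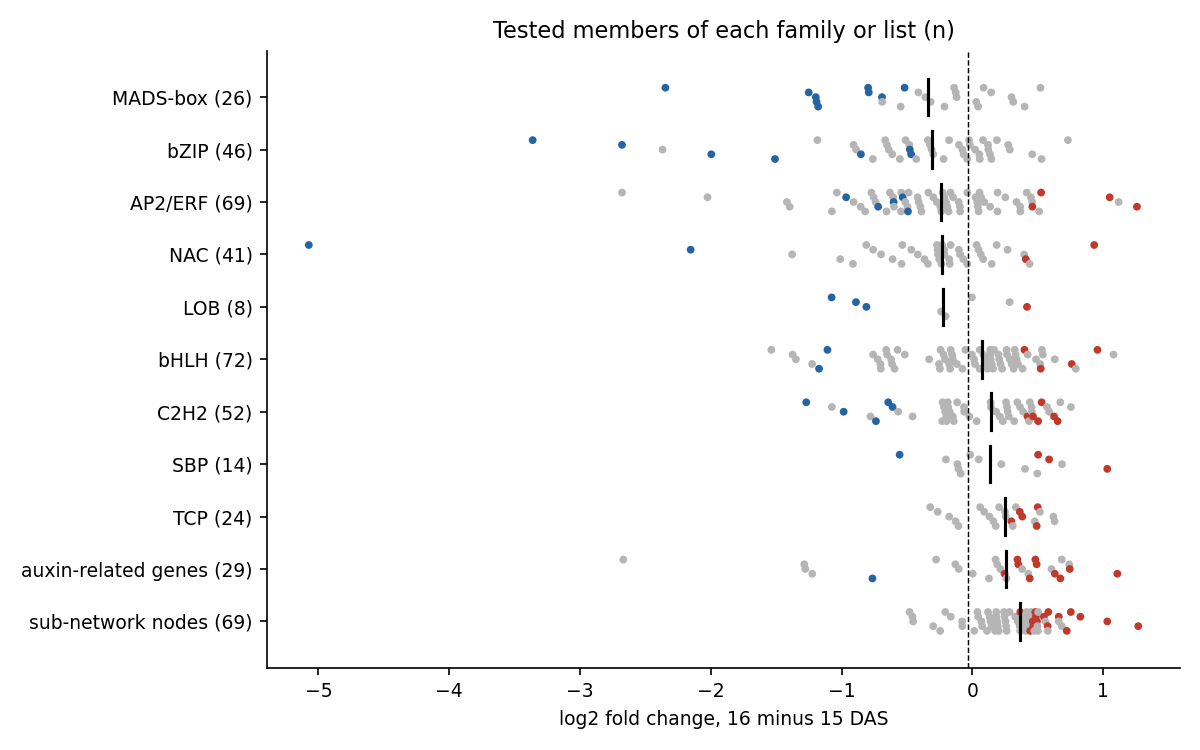
Each point is a tested member of a family or list, placed by its log2 fold change, 16 minus 15 DAS, with red for genes called higher, blue for genes called lower and grey for the rest, a black bar at the list's median and a dashed line at the median of all genes tested. The MADS-box and bZIP medians lie at -0.34 and -0.31 and their coloured points are all blue, while the TCP and sub-network points are coloured red only.

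Auxin directs where lateral organs and meristems form, being made by tryptophan aminotransferases and YUCCA enzymes, moved by carrier proteins, bound to amino acids by GH3 enzymes and read out by ARF factors. Of 30 auxin-related genes listed by the study from its own time course, 29 were tested, with a median log2 change of 0.26. Of these 10 rose and 1 fell (34.5% and 3.45%, beside 9.39% and 12.0% of all genes). The signaling class had the largest share of calls, 6 rises among 9 genes (66.7%). Its median level at 15 DAS was 244 CPM, and of all genes over 100 CPM at 15 DAS 22.6% rose. The ARF2 homolog (Sevir.8G145300) rose from 648, 525, 399 and 611 CPM to 904, 915, 936 and 905 CPM. The 16 DAS libraries lay within a narrow range well above all of 15 DAS (log2 change 0.74, SE 0.14, edgeR adjusted p = 0.00948). The ARF8 homolog (Sevir.3G412300) rose from 277 to 356 CPM up to 456 to 505 CPM (log2 change 0.63, SE 0.10, edgeR adjusted p = 0.00652). The other 4 had changes from 0.25 to 0.49, and all 6 stayed apart between stages. Fewer of the 6 were called when a library was left out, 3 without 16 DAS replicate 1 or 3 and 4 by library size alone.

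Among carriers 2 of 6 rose (33.3%, beside 9.39% of all genes). The LAX2 homolog (Sevir.9G295700), of the influx carriers, rose from 154, 153, 100 and 110 CPM to 204, 209, 221 and 190 CPM (log2 change 0.67, SE 0.15, edgeR adjusted p = 0.0142), and Sevir.2G160200 rose by 0.35 (SE 0.10). Only 1 carrier rose without 15 DAS replicate 1 or any 16 DAS replicate and after thinning to the smallest library. Of the GH3 genes, the GH3.6 homolog (Sevir.3G193600) rose 2.16-fold, from 118, 109, 60.9 and 65.5 CPM to 206, 185, 210 and 160 CPM (log2 change 1.11, SE 0.21, edgeR adjusted p = 0.0106), and replicates 3 and 4 were again the lower libraries at 15 DAS. The OsGH3.11 homolog (Sevir.2G439200) fell, with overlapping stages of 20.2 to 47.3 CPM and 17.0 to 23.7 CPM (log2 change -0.76, SE 0.23, edgeR adjusted p = 0.0447). The auxin rises numbered 5 without 16 DAS replicate 1 or 3, 6 without 16 DAS replicate 4, and the single fall was kept only without 15 DAS replicate 2, where 4 genes fell, among the settings that left out a single library.

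The auxin response class stood apart, with 1 rise among 7 tested genes (14.3%, beside 9.39% of all genes). The rise was the SAUR gene Sevir.4G278500 (0.44, SE 0.14), and the median of -1.22 came from genes that did not pass the test. The SAUR call was lost without 15 DAS replicate 3 or 4 or any 16 DAS replicate, by library size alone and after thinning, each leaving 0 rises. The dormancy and auxin-associated gene Sevir.9G187300 was at 569, 67.5, 918 and 1524 CPM at 15 DAS and 157, 61.4, 419 and 628 CPM at 16 DAS (log2 change -1.29, SE 0.84). Its libraries differed more within a stage than between the stages, with replicate 2 lowest and replicate 4 highest in both.

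From a coexpression module of these same libraries the study drew sub-networks around developmental genes, with 74 nodes listed. Of these 69 were tested, 16 rose and none fell (23.2%, median log2 change 0.37). Over all genes 9.39% rose, 12.0% fell and 21.4% were called in either direction. Nodes of a module share a time course in these libraries, so a shared direction is not independent evidence of it. SvPla1 (Sevir.9G259300), a cytochrome P450 that in rice sets the pace of leaf initiation, rose from 199, 193, 115 and 126 CPM to 292, 273, 241 and 193 CPM. Its stages touched, replicate 4 of 16 DAS lying below replicate 1 of 15 DAS (log2 change 0.66, SE 0.20, edgeR adjusted p = 0.0422). The call was lost by library size alone (0.0613) and without 15 DAS replicate 3 (0.101) or 4 (0.0773) or 16 DAS replicate 1 (0.116), 2 (0.0934) or 3 (0.0882). In the 23 libraries scaled together SvPla1 averaged 456 CPM at 14 DAS, in another sequencing run, and 123 CPM at 18 DAS. Neither of a further pair of network genes passed, the bZIP gene SvDfl1 at 39.9 to 67.0 CPM and 27.9 to 65.8 CPM (log2 change -0.30, SE 0.25) and a GH3 gene homologous to YDK1 at 19.1 to 50.4 CPM and 47.7 to 57.3 CPM (0.68, SE 0.26). SvLg1 and SvBaf1 were nodes as well and had the largest rises. The number of rising nodes ranged from 4 without 16 DAS replicate 1 or 3 and 5 without 16 DAS replicate 2 to 25 without 15 DAS replicate 2, and it was 7 without 15 DAS replicate 3, 9 without 15 DAS replicate 4 or 16 DAS replicate 4, and 8 by library size alone. Of 21 candidate transcription factors 18 were tested, 2 rose and 2 fell (22.2% called, beside 21.4% of all genes, median 0.00). The TGA9 homolog was the largest fall. The largest rise was Sevir.1G326000, at 23.9 to 36.6 CPM and 47.8 to 54.8 CPM (log2 change 0.76, SE 0.13).

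Among genes with at least 10 CPM in their higher stage and no overlap, the 10 largest falls and 10 largest rises were examined, of which 2 in each direction had an annotation. Beside the OsMADS47 homolog, the annotated fall was Sevir.2G398600, a gene for a protein with a transmembrane receptor domain, which went from 19.2, 12.9, 15.5 and 16.1 CPM to 3.37, 3.98, 3.96 and 4.47 CPM. The libraries of each stage were tight, and the fall was 4.04-fold (log2 change -2.01, SE 0.15, edgeR adjusted p = 0.00293). Of the unannotated falls, Sevir.8G210100 went from 135, 174, 48.4 and 91.2 CPM to 24.4, 21.5, 9.72 and 8.95 CPM, and Sevir.6G140500 from 133, 171, 97.1 and 187 CPM to 29.0, 39.3, 27.8 and 32.9 CPM. Their log2 changes were -2.79 (SE 0.44) and -2.19 (SE 0.20). The annotated rises were SvLg1 and the GH3.6 homolog, and among the others Sevir.9G354200 rose from 10.7, 7.95, 8.05 and 7.21 CPM to 20.2, 14.9, 20.5 and 23.1 CPM (log2 change 1.22, SE 0.17), and Sevir.1G346800 from 92.8, 78.6, 57.6 and 58.4 CPM to 173, 184, 143 and 131 CPM (log2 change 1.14, SE 0.17).

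Of genes with a mean of at least 100 CPM, 643 rose and 121 fell without overlap. The annotated among the 5 largest falls were a CHY-RING zinc finger gene, Sevir.5G301100, and the homolog of NHX6 (Sevir.2G165100), an endosomal sodium and proton exchanger of Arabidopsis. The zinc finger gene fell from 108, 117, 153 and 257 CPM to 60.4, 93.2, 45.9 and 56.7 CPM (log2 change -1.31, SE 0.30, edgeR adjusted p = 0.0164). The exchanger gene fell from 211, 160, 328 and 380 CPM to 132, 121, 124 and 148 CPM (log2 change -1.04, SE 0.24, edgeR adjusted p = 0.017). At 15 DAS both were highest in replicate 4. Without 16 DAS replicate 1 or 3 their adjusted p was 0.0536 and 0.0550 for the zinc finger gene and 0.0522 and 0.0562 for the NHX6 homolog, which also reached 0.0502 without 15 DAS replicate 3. The annotated among the 5 largest rises were the GH3.6 and bHLH144 homologs.

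Many of the largest falls came from genes whose 15 DAS libraries disagreed. Of the 429 falls of more than 2-fold, 260 did not overlap between stages and 169 did. Replicate 2 held the lowest 15 DAS value in 266 of the 429 (62.0%, beside 31.9% of all genes tested) and replicate 4 the highest in 266 (62.0%, beside 28.8%). The full order of replicates 2, 1, 3 and 4 from lowest to highest occurred in 196 (45.7%, beside 12.1% of all genes). The same order appeared at 16 DAS in 95 (22.1%, beside 13.3%). Of the 84 falls of more than 4-fold, 61 (72.6%) had this order at 15 DAS, 28 (33.3%) had it at 16 DAS, and in 67 the highest 15 DAS library was over 4 times the lowest, as in 3.37% of all genes. In the 169 overlapping genes the median level was 11.7, 3.66, 18.6 and 28.9 CPM in 15 DAS replicates 1 to 4 and 2.90, 2.82, 3.89 and 5.48 CPM at 16 DAS. In the 260 others it was 4.10, 3.91, 4.40 and 4.98 CPM and 1.78, 1.66, 1.72 and 1.80 CPM. The 30 rises of more than 2-fold leaned the opposite way at 15 DAS, and 10 of them overlapped between stages. Replicate 4 held their lowest 15 DAS value in 19 (63.3%, beside 28.7% of all genes tested). Replicate 1 held the highest in 15 and replicate 2 in 13. The order 4, 3, 1 and 2 from lowest to highest occurred in 8 (26.7%, beside 11.1%) at 15 DAS and in 3 at 16 DAS. Replicates 2 and 1 were also the shallowest libraries, and with every library thinned to the smallest total 340 genes fell more than 2-fold. The number was 276 without 15 DAS replicate 4, 211 without 15 DAS replicate 3, 214 without 16 DAS replicate 1, 191 without 16 DAS replicate 3 and 817 without 15 DAS replicate 2.

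Genes of this pattern were picked after their values were seen and are given as a description. The CTP synthase-like gene (Sevir.5G255400), for an enzyme of pyrimidine nucleotide synthesis, was at 1015, 207, 2291 and 4002 CPM at 15 DAS and 237, 203, 337 and 491 CPM at 16 DAS. Replicate 2 of 15 DAS thus sat within the 16 DAS range, while replicate 4 was far above it. The homolog of SEN1 (Sevir.4G296300), which darkness and senescence induce in Arabidopsis, was at 77.4, 13.0, 141 and 320 CPM and then 14.7, 9.04, 20.6 and 28.1 CPM. The seed imbibition protein homologs SIP1 (Sevir.6G202600) and SIP2 (Sevir.7G148900), glycosyl hydrolases of raffinose sugars, were at 64.2, 5.93, 94.4 and 274 CPM and at 149, 41.4, 300.1 and 486 CPM at 15 DAS, against 6.96 to 12.1 CPM and 34.3 to 82.0 CPM at 16 DAS. A 2-oxoisovalerate dehydrogenase-like gene (Sevir.7G291700) of branched-chain amino acid breakdown was at 143, 26.9, 319 and 580 CPM and then at 33.5 to 73.5 CPM. Transcription factor genes of the same order were the homologs of bZIP9 (Sevir.4G155800), at 161, 13.5, 404 and 584 CPM and 10.5, 6.30, 36.4 and 60.04 CPM, GBF3 (Sevir.3G143000), at 48.2, 6.56, 86.2 and 183 CPM and 7.38 to 21.3 CPM, and the NAC genes ATAF1 (Sevir.5G410700) and ATAF2 (Sevir.9G038400).

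The ATAF1 homolog was at 23.7, 7.32, 43.3 and 78.7 CPM and then at 2.82 to 14.9 CPM, and the ATAF2 homolog was at 11.1, 0.252, 16.0 and 68.1 CPM and then at 0.249 to 1.66 CPM. The log2 changes of the genes of this order named up to here ran from -2.13 (SE 0.60) for the SIP2 homolog to -5.07 (SE 1.17) for the ATAF2 homolog, with standard errors several times those of the SVP-type genes. PRR7 homolog Sevir.2G456400, a pseudo-response regulator of the circadian clock in Arabidopsis, followed the order too, at 65.6, 44.7, 110 and 172 CPM and 32.6, 31.8, 39.3 and 46.0 CPM (log2 change -1.40, SE 0.36, edgeR adjusted p = 0.0245). The homolog of SRG3 (Sevir.1G174600), a glycerophosphodiester phosphodiesterase, was at 67.7, 9.97, 125 and 315 CPM and then at 6.27 to 12.3 CPM. The homolog of catalase 1 (Sevir.1G116500), which breaks down hydrogen peroxide, differed from them, with 4.59, 4.04, 3.27 and 10.2 CPM at 15 DAS and 0.396 to 0.524 CPM at 16 DAS, so that every 15 DAS library was above every 16 DAS library (log2 change -3.52, SE 0.43, edgeR adjusted p = 0.00404). Without 16 DAS replicate 1, the edgeR adjusted p was 0.0911 for the CTP synthase-like gene, 0.108 for the bZIP9, 0.0764 for the SEN1, 0.0594 for the SIP1, 0.0957 for the SIP2, 0.115 for the ATAF1, 0.0587 for the ATAF2, 0.0980 for the GBF3 and 0.0733 for the PRR7 homolog and 0.104 for the 2-oxoisovalerate dehydrogenase-like gene. Without 16 DAS replicate 3 the same 10 genes had values from 0.0587 to 0.0937. All but the SIP1 and ATAF2 homologs also lost their call without 15 DAS replicate 3 (0.0608 to 0.0995) and without 16 DAS replicate 2 (0.0626 to 0.0918). Without 15 DAS replicate 4 the CTP synthase-like, bZIP9, SIP2, ATAF1, 2-oxoisovalerate dehydrogenase-like and GBF3 genes lost it (0.0654 to 0.0974). Calls were lost as well without 15 DAS replicate 1 for bZIP9 (0.0534) and ATAF1 (0.0530), and without 16 DAS replicate 4 for SIP2 (0.0515) and the dehydrogenase-like gene (0.0590).

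**Figure D5:**
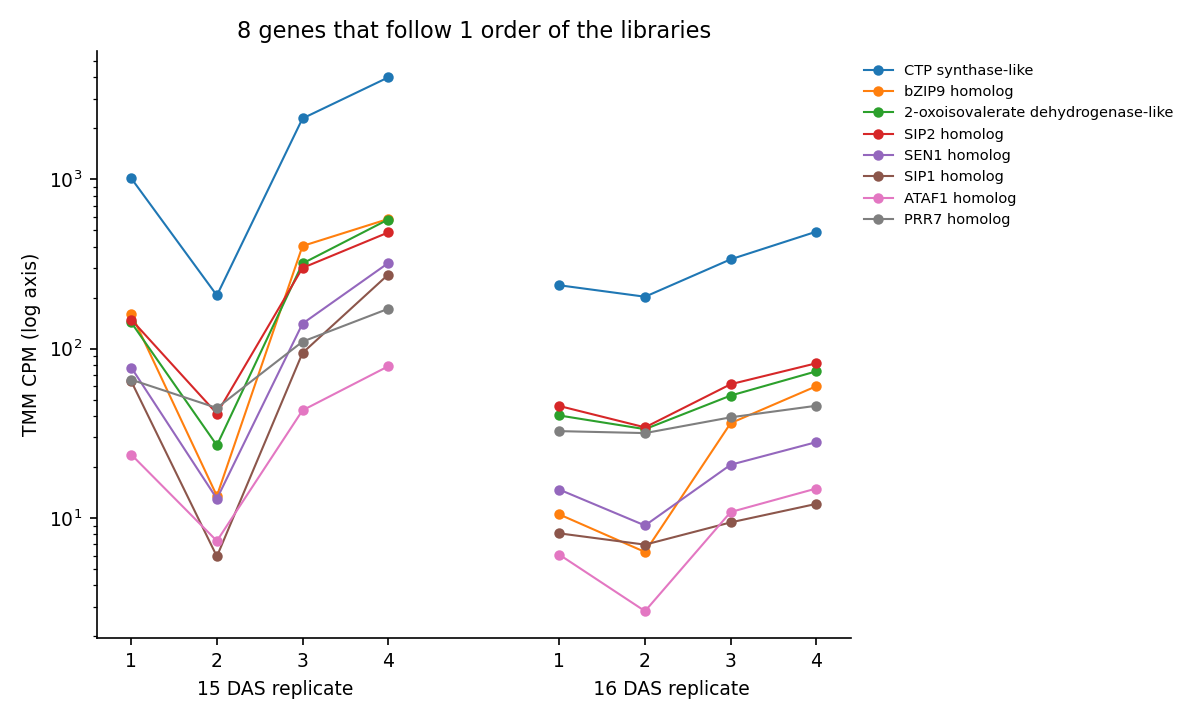
The level in TMM CPM, on a log axis, of 8 genes chosen after their values were seen is given in each library, with 15 DAS replicates on the left, 16 DAS replicates on the right and a line joining the values of a gene within a stage. In every gene replicate 2 is lowest and replicate 4 highest at both stages, as for the CTP synthase-like gene at 207 and 4002 CPM at 15 DAS.

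Lists drawn by keyword from a stretch of chromosome 1, where annotation of every gene was at hand, gave the levels of other processes. Over that stretch 64 of 608 tested genes rose and 72 fell, with a median of -0.04. The single leaf or photosynthesis gene did not pass (log2 change -0.28), at a mean of 47.5 CPM at 15 DAS. Of heat shock genes 0 of 7 rose and 1 fell, of ribosomal protein genes 1 of 13 rose and 2 fell, of histone genes 1 of 4 rose and 1 fell, and of cyclin genes 0 of 9 rose and 1 fell, with medians from -0.25 to 0.03.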

How the data were processed

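RNA was poly(A) selected from pooled primordia, and the 15, 16 and 18 DAS libraries were sequenced in a single-end run. The authors checked reads with FastQC and quantified them with Salmon 0.8.1, taking a primary transcript per gene from version 1.1 of the species' annotation, and the deposited table holds their expected counts (estimated counts) for 35214 genes in 23 libraries, not normalized. Of its values 8.77% carry a fraction, and counts were rounded. The main test was edgeR 4.0.16 (R 4.3.3) on the 8 libraries alone, with filterByExpr, TMM scaling, a quasi-likelihood F-test and Benjamini-Hochberg adjustment over the 19476 genes kept, at an adjusted p under 0.05. A standard error is the absolute log2 change divided by the square root of F. Of the 15738 genes not tested 7163 had no count in the 8 libraries. Means at 14 and 18 DAS are from TMM scaling of all 23 libraries. Overlap means that the highest library of the lower stage reached the lowest of the higher stage. DESeq2 1.42.0 and limma 3.58.1 served as alternatives. On simulated data the test recovered 64% of 2-fold and 96% of 4-fold changes, with 6.4% of its calls false, among 19313 genes. The simulation drew every gene independently and with the same spread at both stages. In the real libraries the biological coefficient of variation was 0.213 at 15 DAS and 0.119 at 16 DAS, and many genes shared an order of libraries. These shares therefore need not hold for the real data. No 2 libraries of a stage were copies, since chi-square per degree of freedom of their counts was at least 3.51.

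Gene names, families and lists came from the study's text and supplementary tables, which annotate 3417 genes at hand, among them 1056 of the stretch on chromosome 1. Members and lists were chosen with earlier results of these data known. Named genes were 54 of the study (1 more, of the early genes, was left out because its printed identifier is incomplete), the 10 largest changes in each direction with at least 10 CPM and no overlap, the 5 largest with a mean of at least 100 CPM and no overlap, and the largest in each direction in each family, also without overlap and with at least 1 CPM. At most 2 unannotated genes per direction are named by identifier. A gene-level standard error covers the spread between pools only, and reads shared between near-identical copies may be split between them by the estimation. Some members of the lists are not reported here individually.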

Additional observations from a re-analysis of the deposited data

Results flagged for a closer look

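In 148 groups of 4 libraries (74 named genes at each stage) 4 held a library whose gap to its nearest neighbour, relative to the range of the group, passed Dixon's critical value for 4 samples, and chance gives about 1 in 20 such groups. SvTaw1 was lowest in 16 DAS replicate 4, at 8.30 CPM beside 13.1 to 13.8 CPM in the others. SvDfl1 was lowest in 15 DAS replicate 2, at 39.9 CPM beside 63.7 to 67.0 CPM. The GH3 gene homologous to YDK1 was lowest in 16 DAS replicate 1, at 47.7 CPM beside 56.0 to 57.3 CPM. The ATAF2 homolog was highest in 16 DAS replicate 4, at 1.66 CPM beside 0.249 to 0.462 CPM.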

How the results depend on the processing

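The number of genes called moved from 4167 to between 1504 and 5458 when a single library was left out. The ranges for the other counts were 634 to 2386 rises, 870 to 3072 falls, 15 to 99 rises and 191 to 817 falls of more than 2-fold, 301 to 970 called genes over 100 CPM at 15 DAS (763 with all libraries), and 28 to 96 called genes of the 9 families (59 with all libraries). In each case the lowest value came without 16 DAS replicate 3, with 15 rises of more than 2-fold also without 15 DAS replicate 3, and the highest without 15 DAS replicate 2. Without 15 DAS replicates 1 and 2, the 15 DAS libraries most like those of 16 DAS, the calls numbered 6722. They held 3290 rises, 359 rises and 1100 falls of more than 2-fold, and 136 in the 9 families. With all 23 libraries in the fit there were 2919 rises, 58 rises and 689 falls of more than 2-fold, and 96 in the 9 families. With the replicate number as a block (replicate block) there were 7106 calls, 3312 rises, 3794 falls, 55 rises of more than 2-fold, 1248 over 100 CPM and 135 in the families. Deviations from the stage means correlated at 0.089, 0.601, 0.228 and 0.5 for the same numbers 1 to 4, and 15 DAS replicate 3 correlated best with 16 DAS replicate 4 (0.515), so the numbers were not taken to pair the pools. DESeq2 called 4850 genes. DESeq2, both other scalings, both other filters, thinning to the smallest library, limma-voom with sample weights and the 12 single-end libraries kept these counts within 1.5 times, and the cause of the larger moves was not tested. Of 41 gene results under 19 alternatives, 21 kept their call under every alternative that tested them, 20 lost it under at least 1, and 0 changed direction. At 15 DAS 3 counts equal 0.193 to 0.393 CPM.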
